A study of Mus musculus with 15 samples.

Results

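The 10 genes described here are Dbp, Tef, Hlf, Nr1d1, Nr1d2, Per2, Per3, Npas2, Arntl and Cry1, the core and output genes of the circadian clock, out of 56953 gene IDs listed for each library. They were listed by symbol with earlier results of these libraries known. Their levels and their CCl4 comparisons are therefore given as a description, with no p-value per gene. Nothing is read from the counts of these genes called for CCl4. All 10 matched a gene ID and passed the filter on low counts.

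RNA of primary mouse hepatocytes was sequenced in 15 libraries of 4 groups: ΔEGFR transgenic mice given CCl4 (n = 4), ΔEGFR mice given mineral oil (n = 4), wild-type (WT) mice given CCl4 (n = 3) and WT mice given mineral oil (n = 4). CCl4 (carbon tetrachloride) is a liver toxin used to cause fibrosis, and mineral oil is its vehicle. The labels give no hour of collection, feeding state or time in culture, no age, strain, dose, number of doses, batch or animal number, and they do not say which promoter drives the ΔEGFR transgene or which part or species of EGFR it holds. Replicate numbers follow the order of deposit and only name a library, and a p-value sets a difference or slope against the spread between libraries.

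The clock is a feedback loop that runs in nearly every cell and turns about once a day. BMAL1 (the product of Arntl) pairs with CLOCK or its relative NPAS2 and switches on genes through E-box sequences, among them the Per and Cry genes, whose products block BMAL1, and Nr1d1 and Nr1d2, whose products (REV-ERBα and REV-ERBβ) shut down Arntl and Npas2 through RORE sequences. Dbp, Tef and Hlf are PAR bZIP factors, outputs of the loop that bind D-box sequences, and in the liver they drive enzymes of drug metabolism. In mouse liver Arntl and Npas2 peak around the change from night to day, Nr1d1 peaks in the middle of the day, Dbp, Tef and Per3 follow late in the day, Per2 peaks around dusk and Cry1 peaks in the night.

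Total counts per library fell into 2 ranges, 51.7 to 61.9 M and 96.2 to 155.4 M counts (M, mega). The deeper range held 3 of 4 ΔEGFR CCl4, 4 of 4 ΔEGFR mineral oil, 1 of 3 WT CCl4 and 1 of 4 WT mineral oil libraries. Hepatocyte markers (9 of 10 matched, albumin and apolipoproteins among them) summed to 52031 to 173915 CPM (counts scaled to library size) over the libraries. WT mineral oil replicate 1 stood apart from its group, with 1846 CPM of neutrophil markers and 78.8 CPM of lymphocyte markers, against group medians of 14.1 and 2.62 CPM. List counts that change without it are given below as well.

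Dbp, the PAR bZIP factor with the widest daily swing in liver, spanned 0.82 to 159 TPM (a level per length of transcript, scaled to the same total in each library), a ratio of 194.5. It measured 143, 137, 22.6 and 9.54 TPM in ΔEGFR CCl4 libraries 1 to 4, against 89.5, 61.4, 2.66 and 159 TPM in ΔEGFR mineral oil libraries 1 to 4. It measured 0.82, 2.30 and 2.44 TPM in WT CCl4 libraries 1 to 3, against 82.7, 123, 38.6 and 22 TPM in WT mineral oil libraries 1 to 4. Every WT CCl4 library lay below every WT mineral oil library, while the ΔEGFR groups overlapped and each spread more than 10-fold. The low end was counted with few reads: WT CCl4 replicate 1 had 40 expected counts of Dbp.

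Tef, its relative, followed the same libraries over a narrower range. Its levels were 62.1, 80.1, 27.6 and 19.4 TPM with CCl4 in ΔEGFR, against 39.7, 39.4, 11.9 and 78.6 TPM with mineral oil. In WT they were 4.96, 11.7 and 7.79 TPM with CCl4, against 61.4, 82.0, 38.2 and 28.9 TPM with mineral oil. The WT groups did not overlap and the ΔEGFR groups did. Hlf, the third PAR bZIP factor, had the smallest range of the 10 genes between its highest and lowest TPM, a ratio of 4.06. Hlf ranged from 14.9 to 32.8 TPM in ΔEGFR CCl4 and from 12.4 to 19.7 TPM in ΔEGFR mineral oil, and from 8.08 to 10.7 TPM in WT CCl4 against 12.9 to 25.98 TPM in WT mineral oil.

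Per3, a period gene that follows Dbp closely in mouse liver, measured 6.86, 9.44, 1.70 and 1.28 TPM in ΔEGFR CCl4, against 3, 1.84, 0.55 and 6.51 TPM in ΔEGFR mineral oil. In WT it measured 0.22, 0.47 and 0.34 TPM with CCl4, against 6.33, 9.09, 1.59 and 0.98 TPM with mineral oil. Again only the WT groups were apart. Per2, the period gene of dusk, divided the libraries within 3 of the groups. It reached 13.5 and 19.9 TPM in ΔEGFR CCl4 replicates 1 and 2, 10.5 TPM in ΔEGFR mineral oil replicate 4, and 14.01 and 10.5 TPM in WT mineral oil replicates 1 and 2. In the other 10 libraries, the 3 of WT CCl4 among them, it lay between 1.77 and 4.53 TPM.

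**Figure D1:**
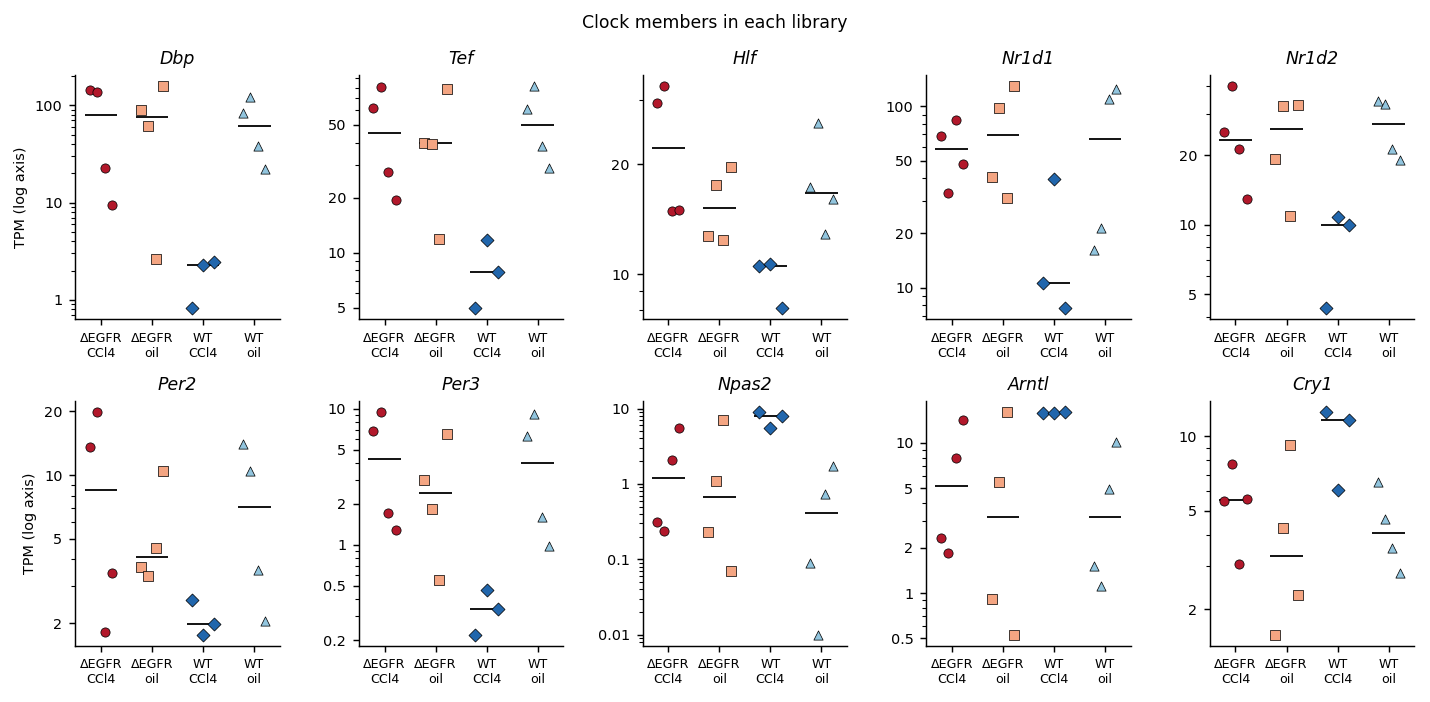
TPM of the 10 genes on log axes, 1 point per library and a line at the group median, with ΔEGFR CCl4, ΔEGFR mineral oil, WT CCl4 and WT mineral oil from left to right. Dbp, Tef, Hlf, Nr1d2 and Per3 lie lower in all 3 WT CCl4 libraries than in all 4 WT mineral oil libraries, and Npas2 and Arntl lie higher, whereas the ΔEGFR groups overlap for every gene.

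The receptors that repress Arntl did not move as 1. Nr1d1 measured 68.2, 33.2, 83.9 and 48.2 TPM in ΔEGFR CCl4, against 40.6, 98.0, 31.3 and 130.1 TPM in ΔEGFR mineral oil. It measured 10.6, 39.97 and 7.69 TPM in WT CCl4, against 16.2, 21.3, 110.3 and 125 TPM in WT mineral oil, and those groups overlapped. The WT mineral oil libraries with the most Dbp, replicates 1 and 2, had the least Nr1d1 of that group. Nr1d2 was more even, at 12.9 to 39.95 TPM in ΔEGFR CCl4 against 10.9 to 33.0 TPM in ΔEGFR mineral oil, and at 4.35, 10.8 and 10 TPM in WT CCl4 against 34.3, 33.4, 21.3 and 19.1 TPM in WT mineral oil.

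The activators ran the other way. Arntl measured 2.33, 1.84, 7.98 and 14.2 TPM in ΔEGFR CCl4, against 0.92, 5.53, 16.1 and 0.53 TPM in ΔEGFR mineral oil. The 3 WT CCl4 libraries held nearly the same TPM, 15.8, 15.9 and 16.0, against 1.51, 1.11, 4.95 and 10.2 TPM in WT mineral oil. In CPM they held 26.5, 25.7 and 20.8, the last barely above the 20.5 CPM of WT mineral oil replicate 4. ΔEGFR mineral oil replicate 3 reached the level of the WT CCl4 libraries.

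Npas2, the partner that varies most over the day in liver, measured 9, 5.44 and 7.89 TPM in WT CCl4, against 0.09, 0.01, 0.74 and 1.75 TPM in WT mineral oil. In ΔEGFR it measured 0.31, 0.24, 2.05 and 5.44 TPM with CCl4, against 0.23, 1.09, 7 and 0.07 TPM with mineral oil. Its lowest value was 1 expected count, in WT mineral oil replicate 2, so ratios to that library carry a wide counting error. Cry1, the late repressor, measured 12.5, 6.05 and 11.7 TPM in WT CCl4, against 6.56, 4.61, 3.52 and 2.81 TPM in WT mineral oil, where replicate 1 lay above the lowest CCl4 library. In ΔEGFR it ran from 3.05 to 7.72 TPM with CCl4 and from 1.58 to 9.18 TPM with mineral oil.

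Dbp and Arntl placed the 15 libraries along 1 curve. The ratio of Dbp to Arntl in TPM was 300.9 in ΔEGFR mineral oil replicate 4 and 111 in WT mineral oil replicate 2 at one end, and 0.0518 in WT CCl4 replicate 1 at the other. Both ΔEGFR groups held libraries of either kind: the ratio was 74.4 in CCl4 replicate 2 and 0.674 in CCl4 replicate 4, and 0.165 in mineral oil replicate 3. Nr1d1 and Per2 gave a second view, chosen after the values were seen. The ratio of Nr1d1 to Per2 was 46.3 in ΔEGFR CCl4 replicate 3, 29.4 in ΔEGFR mineral oil replicate 2, and 30.8 and 61.3 in WT mineral oil replicates 3 and 4, all with intermediate Dbp and little Per2. It was 1.67 in ΔEGFR CCl4 replicate 2, and 1.16 and 2.03 in WT mineral oil replicates 1 and 2, all with high Dbp and high Per2. ΔEGFR mineral oil replicate 4 was of neither kind, with the highest Dbp and Nr1d1 of all libraries beside high Per2 and a ratio of 12.4, and ΔEGFR mineral oil replicate 1 and ΔEGFR CCl4 replicate 1, at 11.02 and 5.04, lay between them too. Set against the known order of the peaks, libraries of the first kind have the gene mix of the middle of the day and those of the second that of late day or dusk. WT CCl4 replicates 1 and 3, at 4.14 and 3.88, had little of either gene beside high Arntl, Npas2 and Cry1, the mix of the night or early morning. WT CCl4 replicate 2, at 22.6, joined high Arntl to more Nr1d1. So did ΔEGFR CCl4 replicate 4, at 13.9, with 14.2 TPM of Arntl and 48.2 TPM of Nr1d1. ΔEGFR mineral oil replicate 3, at 6.91, had 16.1 TPM of Arntl, 7 TPM of Npas2 and 9.18 TPM of Cry1, beside 31.3 TPM of Nr1d1. High levels of Arntl, Npas2 and Cry1 were thus not particular to WT CCl4. No hour was assigned to a library.

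**Figure D2:**
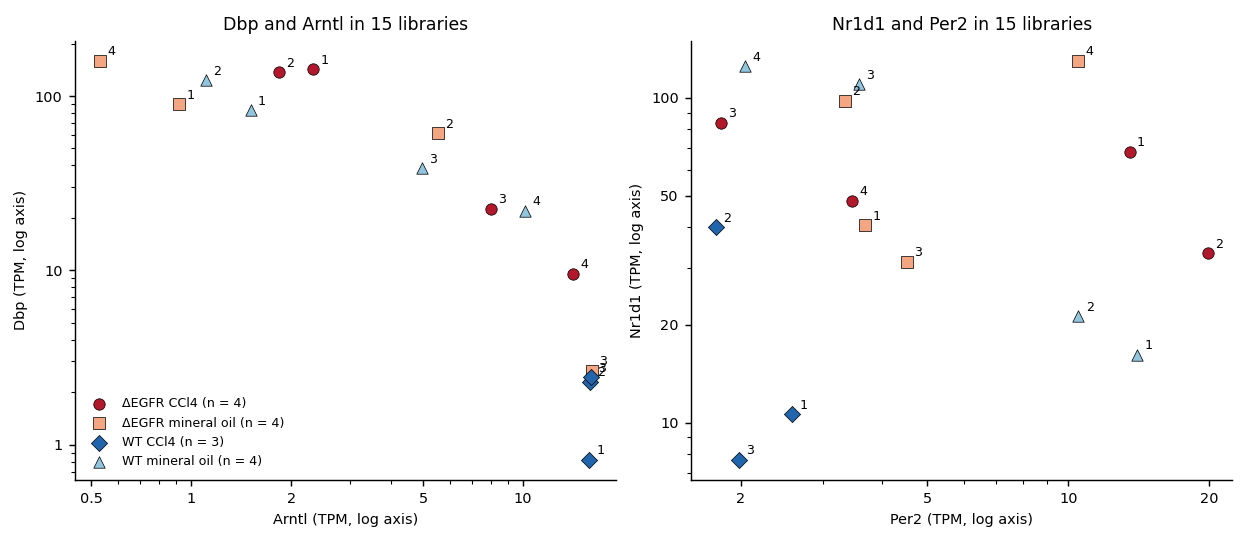
Left, Dbp against Arntl, and right, Nr1d1 against Per2, both in TPM on log axes, 1 numbered point per library (ΔEGFR CCl4 circles, ΔEGFR mineral oil squares, WT CCl4 diamonds, WT mineral oil triangles). On the left the 3 WT CCl4 libraries crowd at 15.8 to 16.0 TPM of Arntl beside ΔEGFR mineral oil replicate 3, and on the right libraries with much Nr1d1 and little Per2 part from libraries with much Per2.

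The mean log2 CPM of the 7 day and evening genes (Dbp, Tef, Hlf, Nr1d1, Nr1d2, Per2 and Per3) minus that of the 3 night and morning genes (Arntl, Npas2 and Cry1) summed this up as a phase index. It was 4.69, 4.88, 2.18 and 0.69 in ΔEGFR CCl4 libraries 1 to 4, against 5.46, 3.34, −0.37 and 6.85 in ΔEGFR mineral oil libraries 1 to 4. It was −1.85, −0.30 and −1.30 in WT CCl4 libraries 1 to 3, against 5.15, 6.36, 3.11 and 2.09 in WT mineral oil libraries 1 to 4. The means were 3.11 ± 2.03 in ΔEGFR CCl4 and 3.82 ± 3.14 in ΔEGFR mineral oil (SD, n = 4 each), and −1.15 ± 0.785 in WT CCl4 (SD, n = 3) and 4.18 ± 1.93 in WT mineral oil (SD, n = 4). The WT groups lay apart, and ΔEGFR mineral oil spread over 7.21 units, the widest range of the 4 groups. The index is a description and was not tested.

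**Figure D3:**
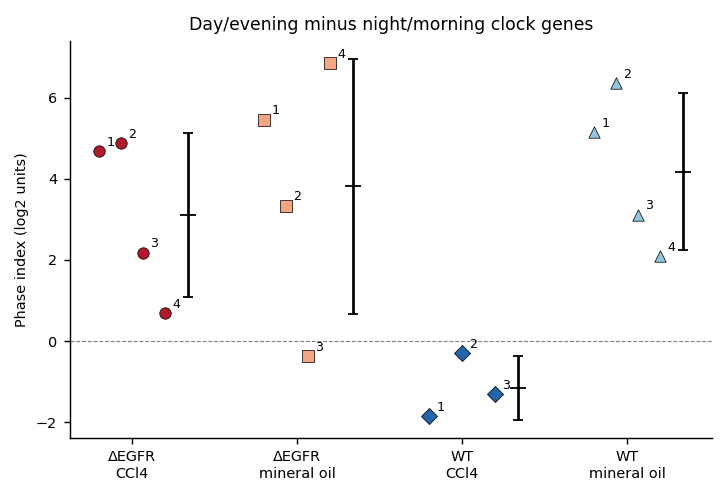
Phase index of each library in log2 units (7 day and evening genes minus 3 night and morning genes), with numbered replicates and, beside them, the mean ± SD. The 3 WT CCl4 libraries and ΔEGFR mineral oil replicate 3 lie below 0, and the other 11 libraries lie between 0.69 and 6.85.

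Within groups most of the genes varied together, but Nr1d1 and Cry1 did not follow the others of their set. Over the 15 libraries, each taken as its deviation from its group's mean log2 CPM, the 21 pairs of day and evening genes had a median Pearson r of 0.73 (range −0.43 to 0.97), and 19 were positive. The 21 pairs of a day or evening gene with a night or morning gene had a median r of −0.79 (range −0.98 to 0.35), and 18 were negative. Of the 3 pairs among the night and morning genes, Arntl with Npas2 had an r of 0.97, and Cry1 had 0.15 with Arntl and 0.13 with Npas2. Nr1d1 had an r of 0.12 with Dbp, 0.11 with Tef, −0.13 with Per3 and −0.43 with Per2, and of 0.16 with Arntl, 0.19 with Npas2 and −0.79 with Cry1. Cry1 had an r of 0.35 with Per2. All pairs share the same libraries, and these values are a description.

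The elements of the loop were looked for near the start sites. RefSeq promoter windows (GRCm38.p6, 250 bases before to 50 after the start) were held for 9 of the 10 genes, in 11 windows, but not for Per2. The E-box CACGTG, which reads the same on both strands, was found in the windows of 2 of the 10 genes, Tef and Cry1, and in 7.15% of all 32851 windows. The D-box TTATGTAA, searched on both strands, was found in 1, Per3, and in 0.938% of all windows, and the RORE in 1, Arntl, and in 0.384%. The stretches below are shown because each holds an element through which the loop acts, with the element in capitals and the gene's strand read 5′ to 3′. Ciart, a repressor of BMAL1 that is described further on, is added for its 3 E-boxes, which begin 116, 58 and 44 bases before the start.
Tef (chr15:81802526-81802571, plus strand, before the start): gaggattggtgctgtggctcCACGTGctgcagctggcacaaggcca
Cry1 (chr10:85185089-85185134, minus strand, before the start): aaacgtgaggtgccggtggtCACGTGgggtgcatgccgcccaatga
Ciart (chr3:95882255-95882356, minus strand, before the start): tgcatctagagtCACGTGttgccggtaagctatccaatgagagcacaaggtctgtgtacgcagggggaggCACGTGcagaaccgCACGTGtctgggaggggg
Per3 (chr4:151044804-151044882, minus strand, before the start): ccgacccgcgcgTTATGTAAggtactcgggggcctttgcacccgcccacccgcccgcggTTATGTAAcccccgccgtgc
Arntl (chr7:113207529-113207555, plus strand, just after the start): gaaggcagAAAGTAGGTCAgggacgga

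The 2 D-boxes of Per3 begin 205 and 158 bases before its start. A match of letters is a description, and no binding was measured. Windows without a match, such as those of Dbp, Hlf, Nr1d1, Nr1d2 and Npas2, say only that these letters were not in these bases.

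CCl4 was set against mineral oil in each genotype by edgeR's quasi-likelihood test over 17975 genes. In WT the log2 fold change was −5.90 ± 1.41 (standard error) for Dbp, −4.29 ± 1.13 for Per3, −3.21 ± 0.71 for Tef, −2.16 ± 0.48 for Nr1d2 and −1.37 ± 0.36 for Hlf. It was −2.30 ± 0.86 for Nr1d1 and −2.34 ± 0.82 for Per2, and 3.17 ± 1.65 for Npas2, 1.39 ± 1.02 for Arntl and 0.73 ± 0.43 for Cry1. At a Benjamini-Hochberg adjusted p under 0.05, 5 of 10 genes were called, all lower, beside 12.5% of all genes tested (5.31% higher and 7.2% lower), and nothing is read from this count because the genes were chosen on it. Groups did not overlap for 5 genes lower (11.9% of all genes) and for 2 higher (12.1% of all genes). The median was −2.23 over the 10 genes and −0.03 over all genes.

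In ΔEGFR the same fit gave 0 of 10 called, beside 4.15% of all genes (1.77% higher and 2.38% lower), and 0 at an unadjusted p under 0.05. Nothing is read from these counts either, because the genes were listed with this comparison known. Groups were apart for 0 of 10, beside 12.3% of all genes higher and 9.32% lower. The log2 fold changes ran from −0.91 ± 0.74 for Nr1d1 and −0.90 ± 1.01 for Dbp to 0.09 ± 1.46 for Npas2, with a median of −0.08 beside −0.02 over all genes. TPM lacks the scaling factor of this fit and reads differently for some genes. Hlf averaged 23.0 TPM with CCl4 and 15.6 TPM with mineral oil, at a log2 fold change of −0.06 ± 0.32. Per2 averaged 9.66 and 5.51 TPM (0.09 ± 0.70), and Per3 4.82 and 2.975 TPM (−0.09 ± 0.87). The standard errors ran up to 1.46, for Npas2, so changes of several fold in either direction are within the error for some of these genes. Fewer cells of a type and less RNA per cell cannot be told apart in bulk RNA.

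**Figure D4:**
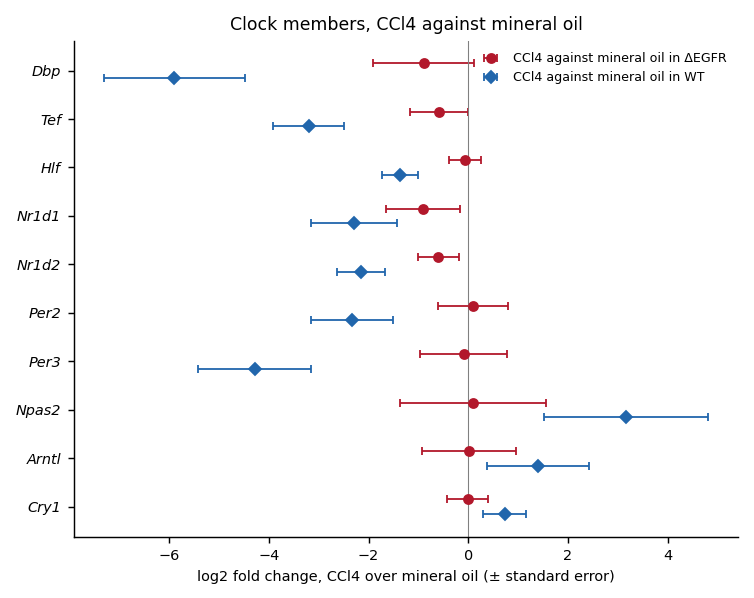
Log2 fold change of CCl4 over mineral oil with its standard error for each gene, in ΔEGFR (circles) and in WT (diamonds) below it. In WT the values run from −5.90 for Dbp to 3.17 for Npas2, and in ΔEGFR from −0.91 for Nr1d1 to 0.09 for Npas2.

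The count in WT rested on few libraries. It was 0 of 10 when WT CCl4 replicate 1 or replicate 3 was left out, 2 when WT CCl4 replicate 2 was, 3 when WT mineral oil replicate 2 was and 6 when WT mineral oil replicate 1 was, while the log2 fold change of Dbp stayed between −6.22 and −5.34. Within the depth classes, which hold few libraries each, Dbp differed by −5.67 in log2 CPM among libraries under 80 M counts (2 CCl4, 3 mineral oil) and by −5.85 among those over it (1 and 1), and the phase index by −4.93 and −6.45. In ΔEGFR only the deeper class holds both treatments (3 and 4 libraries), and there the index differed by −0.40. Over all libraries of ΔEGFR it differed by −0.71, and with single libraries left out it ran from −2.11, without mineral oil replicate 3, to 0.10 without CCl4 replicate 4 and 0.30 without mineral oil replicate 4.

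Summed macrophage, stellate cell and cholangiocyte markers were higher with CCl4, with groups that did not overlap save for cholangiocyte markers in ΔEGFR. All 14 macrophage and 10 stellate cell markers had a positive log2 fold change in both genotypes. Of 6 cholangiocyte markers 4 were positive and 2 negative in WT, and 5 and 1 in ΔEGFR. In WT 2 of 14, 3 of 10 and 2 of 6 were called higher, beside 5.31% of all genes. In ΔEGFR 0 of each list were called, beside 4.15% of all genes. Macrophage markers (14 of 14 matched) summed to 2737 to 5892 CPM in ΔEGFR CCl4 against 48.5 to 1369 CPM in ΔEGFR mineral oil, and to 2423 to 6634 CPM in WT CCl4 against 114 to 2412 CPM in WT mineral oil. Stellate cell markers (10 of 10) summed to 276 to 861 CPM in ΔEGFR CCl4 against 43.4 to 249.7 CPM in ΔEGFR mineral oil, and to 222 to 633 CPM in WT CCl4 against 36.2 to 172 CPM in WT mineral oil. Cholangiocyte markers (6 of 6) summed to 222 to 557 CPM in ΔEGFR CCl4 against 20.2 to 280.0 CPM in ΔEGFR mineral oil, and to 289 to 744 CPM in WT CCl4 against 32.9 to 211 CPM in WT mineral oil. Endothelial markers (10 of 10) overlapped, at 279 to 512 CPM in ΔEGFR CCl4 against 99.7 to 439.8 CPM in ΔEGFR mineral oil, and at 140 to 517 CPM in WT CCl4 against 78.0 to 978 CPM in WT mineral oil. Neutrophil markers (5 of 5) overlapped as well, at 28.6 to 155 CPM in ΔEGFR CCl4 against 1.92 to 143 CPM in ΔEGFR mineral oil, and at 76.2 to 294.5 CPM in WT CCl4 against 2.53 to 1846 CPM in WT mineral oil. Lymphocyte markers (6 of 6) stayed below 100 CPM in every library. Of the 10 endothelial markers, 3 had a positive and 7 a negative log2 fold change in WT, against 10 and 0 in ΔEGFR. For the 5 neutrophil markers these counts were 0 and 5 in WT, and 4 and 1 in ΔEGFR. For the 6 lymphocyte markers they were 3 and 3 in WT, and 6 and 0 in ΔEGFR. None of these markers was called in either genotype, beside 12.5% of all genes in WT and 4.15% in ΔEGFR. Hepatocyte markers had medians of 73495 CPM in ΔEGFR CCl4 against 110151 CPM in ΔEGFR mineral oil, and of 86464 CPM in WT CCl4 against 132286 CPM in WT mineral oil, and their groups overlapped. All 9 hepatocyte markers tested had a negative log2 fold change in both genotypes, with a median of −0.98 in WT and −0.87 in ΔEGFR. In WT 4 of 9 were called lower, beside 7.2% of all genes, and in ΔEGFR 2 of 9, beside 2.38%. No marker of these lists was at 0 in all libraries. With the mean log2 CPM of all other-cell markers as a covariate, the log2 fold change of Dbp in WT was −5.63 and 3 of 10 genes were called. Within groups this score and the phase index had a Pearson r of −0.14 and a Spearman rho of −0.08 over the 15 libraries.

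ΔEGFR was then set against WT within each treatment. These comparisons use the same libraries as those above, so the WT CCl4 values enter both, and with CCl4 the 10 genes are described with no p-value. There edgeR called 0 of all 17975 genes, with 411 at an unadjusted p under 0.05. Dbp was 5.39 ± 1.38 higher on the log2 scale, with 4 of 4 ΔEGFR libraries above all 3 WT libraries. The log2 differences were 3.66 ± 1.10 for Per3, 2.51 ± 0.69 for Tef, 1.45 ± 0.46 for Nr1d2 and 1.12 ± 0.36 for Hlf, each with groups that did not overlap. Groups were apart and higher for 5 of 10 genes and lower for 0, beside 2.68% and 2.38% of all genes. DESeq2 called 2 genes of all. Dbp was 1 of them, which is not read as a test, because Dbp was listed with its low WT CCl4 values known.

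With mineral oil the 10 log2 differences of ΔEGFR minus WT ran from −0.53 ± 0.87 for Per3 to 1.24 ± 1.49 for Npas2. None of the 10 had an unadjusted p under 0.05, the lowest adjusted p was 0.831 (edgeR), and all groups overlapped, beside 1.44% of all genes apart and higher and 1.29% apart and lower. Over all genes 0 were called by edgeR and 0 by DESeq2, and 1197 had an unadjusted p under 0.05. The interaction, which asks whether the CCl4 difference itself differs between genotypes, was 5.003 ± 1.60 for Dbp, 4.19 ± 1.37 for Per3, 2.62 ± 0.88 for Tef and −3.07 ± 2.18 for Npas2. Its sign was positive for 7 of 10 genes. It rests on the same WT CCl4 libraries and is given as a description too. Over all genes 0 were called by edgeR, 568 had an unadjusted p under 0.05, and DESeq2 called 2, 1 in each direction. No gene's CCl4 difference was shown by edgeR to differ between genotypes at the threshold.

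The rest of the loop was described through 13 other clock genes. With CCl4 in WT 1 of 13 was called, Cry2, which was lower, beside 7.2% of all genes. Cry2, the second cryptochrome, averaged 8.49 ± 2.34 TPM in WT CCl4 (SD, n = 3) and 13.7 ± 4.82 TPM in WT mineral oil (SD, n = 4), with a log2 fold change of −1.22 ± 0.35 (adjusted p = 0.0367, edgeR). Ciart measured 0.75, 0.86 and 1.20 TPM in WT CCl4, against 7.12, 27.7, 2.17 and 3.17 TPM in WT mineral oil, and its log2 fold change of −3.98 ± 1.32 did not pass (adjusted p = 0.0655, edgeR). Nfil3, the repressor of D-box genes that runs opposite to Dbp, measured 43.9 to 48.0 TPM in WT CCl4 against 10.7 to 29.1 TPM in WT mineral oil, a log2 fold change of 0.74 ± 0.33 that did not pass (adjusted p = 0.158, edgeR). Clock, the partner of BMAL1 that hardly cycles, differed by −0.04 ± 0.38. In ΔEGFR 0 of 13 were called. The median was −0.15 in WT and −0.24 in ΔEGFR, beside −0.03 and −0.02 over all genes. Without a scaling factor both medians turned positive, 0.29 in WT and 0.13 in ΔEGFR, below the medians of all genes, which were then 0.40 and 0.44.

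Targets further down were counted in the same way. Of 8 targets of the PAR bZIP factors 2 were called lower with CCl4 in WT, beside 7.2% of all genes: Nr1i3, the xenobiotic receptor CAR, at −1.41 ± 0.37 (adjusted p = 0.0279, edgeR), and Ppara, the receptor that controls fatty acid oxidation, at −1.25 ± 0.38 (adjusted p = 0.0479, edgeR). Of 18 clock-controlled liver genes 2 were called lower, a share near that of all genes: Mtss1 at −1.45 ± 0.29 (adjusted p = 0.0099, edgeR) and Gys2, the liver glycogen synthase, at −1.69 ± 0.48 (adjusted p = 0.0366, edgeR). Elovl3, an elongase of fatty acids with a strong daily rhythm in mouse liver, measured 0.47 to 14.6 TPM in ΔEGFR CCl4 against 13.4 to 165.5 TPM in ΔEGFR mineral oil, and 3.76 to 10.7 TPM in WT CCl4 against 15.4 to 236 TPM in WT mineral oil. Its log2 fold change was −4.37 ± 1.23 in ΔEGFR (adjusted p = 0.0626, edgeR) and −4.37 ± 1.39 in WT (adjusted p = 0.0565, edgeR), so it did not pass in either. In ΔEGFR 0 of 8 and 0 of 18 were called, beside 4.15% of all genes.

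Genes of signals that can set a liver clock were counted as well. Of 8 glucocorticoid targets 1 was called higher and 1 lower with CCl4 in WT, beside 5.31% and 7.2% of all genes: Sgk1, a kinase that many stresses also induce, at 2.55 ± 0.71 (adjusted p = 0.0342, edgeR), and Zbtb16 at −1.54 ± 0.41 (adjusted p = 0.0300, edgeR). Fkbp5, another target of the same receptor, measured −1.16 ± 0.41 (adjusted p = 0.0830, edgeR). Of the 8 targets 1 was positive and 7 were negative in WT, with a median of −0.71 beside −0.03 over all genes. In ΔEGFR 3 were positive and 5 negative, with a median of −0.41 beside −0.02. None of 10 feeding and fasting genes and none of 12 immediate early genes was called in either genotype, beside 12.5% of all genes in WT and 4.15% in ΔEGFR. Without WT mineral oil replicate 1, 3 immediate early genes were called higher in WT, and 1 feeding and fasting gene higher and 1 lower. Without WT mineral oil replicate 4, 2 feeding and fasting genes were called higher in WT. In ΔEGFR 0 of 8 glucocorticoid targets were called, and Sgk1 measured 2.36 ± 0.68 (adjusted p = 0.0658, edgeR). In no list of these was a gene called for ΔEGFR against WT or for the interaction.

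None of these 7 calls held with each library of the groups left out. The call of Mtss1 was lost without WT CCl4 replicate 3 (adjusted p = 0.0520, edgeR), as were those of Cry2, Gys2, Nr1i3, Ppara, Sgk1 and Zbtb16, for which the highest adjusted p values of edgeR were 0.166, 0.145, 0.127, 0.191, 0.135 and 0.118. These 6 were lost as well when replicate 2 of either WT group was left out. Nr1i3, Ppara, Gys2 and Zbtb16 also lost it without WT CCl4 replicate 1, all but Zbtb16 of the 6 without WT mineral oil replicate 3, and Ppara and Sgk1 without WT mineral oil replicate 4. With WT mineral oil replicate 1 left out, the counts in WT became 2 higher and 3 lower of the 13 other clock genes, 1 higher and 3 lower of the 18 clock-controlled genes, and 1 higher and 2 lower of the 8 glucocorticoid targets. The call of Ciart was gained without WT mineral oil replicate 1 (adjusted p = 0.0425, edgeR). Other settings changed the counts in WT too. The other clock genes and the PAR bZIP targets had 0 calls with the other-cell score as a covariate, and 0 in a fit of only the groups compared. With that covariate, 1 clock-controlled gene was called lower and 1 glucocorticoid target higher. Without a scaling factor, the other clock genes had 2 higher and 0 lower, and the PAR bZIP targets 1 lower.

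The spread within groups allowed a comparison that does not rest on the group differences. A slope of log2 expression on the phase index, beside 4 group means, was estimated for all genes after the data had been seen. Apart from the 10 genes that make the index, 23 of 17965 genes were called (0.128%), 9 with a positive slope (0.0501%) and 14 with a negative one (0.0779%). P-values were adjusted over all 17975 genes. Among the other clock genes 1 of 13 was called, Ciart, the carrier of the 3 E-boxes, with 0.73 ± 0.08 log2 units per unit of the index (adjusted p = 0.0022, edgeR). Ciart measured 20.9, 14.7, 2.85 and 2.44 TPM in ΔEGFR CCl4 libraries 1 to 4, against 15.4, 4.32, 1.20 and 31.7 TPM in ΔEGFR mineral oil libraries 1 to 4, so it was high in the libraries with high Dbp and low in those with high Arntl.

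Por, the P450 reductase and a target of the PAR bZIP factors, was the 1 called gene of 8 in its list, with a slope of 0.24 ± 0.04 (adjusted p = 0.0259, edgeR). It measured 219 to 534 TPM in ΔEGFR CCl4 against 129 to 306 TPM in ΔEGFR mineral oil, and 144 to 266 TPM in WT CCl4 against 171 to 432 TPM in WT mineral oil. In CPM, which carries the scaling factor, the ΔEGFR means were closer, 428 ± 112 with CCl4 and 398 ± 173 with mineral oil (SD, n = 4 each). The WT means were 233 ± 87.2 CPM (SD, n = 3) and 488 ± 221 CPM (SD, n = 4). Without a scaling factor 0 of the 8 targets had a called slope. Of 18 clock-controlled genes 1 was called with a positive and 1 with a negative slope. Usp2, a deubiquitinase with a rhythm close to that of Dbp, had a slope of 0.54 ± 0.09 (adjusted p = 0.0353, edgeR), and Dtx4 a slope of −0.32 ± 0.05 (adjusted p = 0.0240, edgeR). Without WT mineral oil replicate 1 the other clock genes had 1 positive and 1 negative call. The count for the clock-controlled genes was 3 positive and 3 negative without that library, 1 positive and 5 negative with the other-cell score as a covariate, and 0 without a scaling factor. None of the 8 glucocorticoid targets, the 10 feeding and fasting genes or the 12 immediate early genes was called. Clock had a slope of −0.21 ± 0.04 that did not pass (adjusted p = 0.0913, edgeR), and Nfil3 one of −0.16 ± 0.04 (adjusted p = 0.198, edgeR).

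The slopes kept their sign with each library left out, and their calls depended on single libraries. Without ΔEGFR mineral oil replicate 3, the lowest of its group, the adjusted p was 0.0525 for Ciart, 0.258 for Por, 0.142 for Usp2 and 0.392 for Dtx4 (edgeR). That was the one omission that cost Ciart its call. Por also lost it without ΔEGFR CCl4 replicates 2 or 3, ΔEGFR mineral oil replicates 1 or 4 or WT mineral oil replicate 2, and Dtx4 without ΔEGFR CCl4 replicates 1 or 3, ΔEGFR mineral oil replicates 1 or 4 or WT mineral oil replicates 2 or 4. Usp2 kept it only when WT CCl4 replicate 2 or WT mineral oil replicates 1 or 3 were left out. In these cases the adjusted p stayed below the value without ΔEGFR mineral oil replicate 3. The count of called genes, the 10 index genes now included, was 29 in all and ran from 5 without ΔEGFR mineral oil replicate 3 to 62 without WT mineral oil replicate 1.

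**Figure D5:**
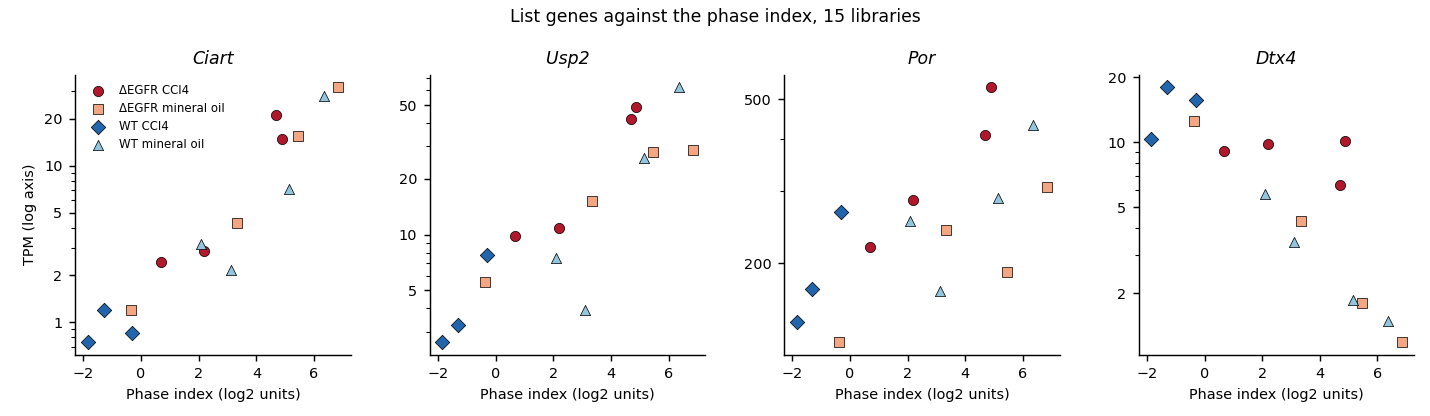
TPM on log axes of the 4 list genes with a called slope against the phase index in log2 units, 1 point per library and the 4 groups by colour and shape. Ciart, Usp2 and Por climb with the index and Dtx4 declines, also among the 4 ΔEGFR mineral oil libraries (squares), where Ciart runs between 1.20 and 31.7 TPM.

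The genes most like the phase index were sought among 9706 genes whose log2 CPM averaged 2 or more, by Pearson r of deviations from the group means over the 15 libraries, as a description. They were Pcsk4 (r = 0.95), Por (0.91), Thrsp (0.91), Ngef (0.90) and Bnip3 (0.89). Thrsp, a regulator of fat synthesis, ranged from 57.8 to 803 TPM over the libraries. The genes most opposite to the index were Gstcd (r = −0.94), Tubb2a (−0.94), Tmem263 (−0.93), Myef2 (−0.93) and Slc16a1 (−0.92), and Tubb2a, a tubulin, ranged from 14.2 to 455.6 TPM. ΔEGFR mineral oil replicates 3 and 4 have the indices that lie farthest from their group's mean. Without their points r was 0.91 for Pcsk4 and −0.94 for Gstcd, and 0.78 for Bnip3, the lowest of the first 5. The group means still included both libraries, so their influence was removed only in part.

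The counts of all genes called for CCl4 moved with the index as a covariate, a setting added after the data had been seen. In WT 4 genes were called in place of 2250, and in ΔEGFR 371 in place of 746. In WT the index and the treatment cannot be told apart, because no mineral oil library had an index as low as any CCl4 library (lowest 2.09, against a highest of −0.30 with CCl4). The log2 fold change of Ciart was then 0.60 (adjusted p = 0.693, edgeR).

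Some reads of these genes may come from a neighbour on the other strand, since the use of strand in counting is not stated. By the GENCODE M21 annotation (GRCm38), exons of Dbp share 539 bases (18% of its exon bases) with Sphk2, which ranged from 11.6 to 40.1 TPM, and exons of Nr1d1 share 263 bases (8.5%) with Thra, at 4.61 to 9.9 TPM. Without strand the sources of reads over those bases cannot be told apart. Dbp at 0.82 TPM in WT CCl4 replicate 1 bounds what Sphk2 could add there.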

How the data were processed

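Libraries were stranded mRNA, per the labels' protocols. The submitters' processing notes name GRCm39, STAR 2.7.8a and RSEM 1.3.0. The deposited files hold expected counts and TPM per Ensembl gene, both made by the authors with RSEM. The deposited FPKM columns were not used. Which annotation release was used, and whether strand was, is not given in the sources used here. Gene names came from a table of another build, joined by Ensembl ID (52029 of 56953 IDs, 91.4%).

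The expected counts, rounded, went into edgeR 4.0.16 under R 4.3.3 (robust quasi-likelihood, TMM, 1 mean for each of the 4 groups, all 15 libraries). filterByExpr (minimum count 10, minimum total 15) left 17975 genes, and the Benjamini-Hochberg threshold was 0.05. Log2 CPM used a prior count of 2. The tests were tested on simulated data. Alternatives were DESeq2 1.42.0, limma 3.58.1 on log2(TPM + 1), RLE or no scaling, other filters (none, or 1 CPM in 3 libraries), only the groups compared, covariates for other-cell markers and for depth class (over 80 M counts, M for mega), and each library left out. The phase index as a covariate, the slope on the index and the ratios with Nr1d1 were added after the data were seen. Expected counts come from reads without molecular identifiers.

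The members, lists and tests were chosen with earlier results of these data known. Named genes are the 10 members, any of the 13 other clock genes, up to 4 genes of each further list with the lowest adjusted p for CCl4, the list genes called on the slope (chosen after their values were seen), and the 5 most and 5 least like the index. Within-group pairs of libraries (21) had r of 0.867 to 0.980 in log2 CPM, and 0 files were identical. One further clock gene of that list is not reported here and is left out of its counts. Libraries of different groups could not be paired from the labels.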

Additional observations from a re-analysis of the deposited data

How the results depend on the processing

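The log2 fold changes of Dbp, Tef, Hlf, Nr1d2 and Per3 for CCl4 in WT were negative under every setting read for them. The phase index as a covariate was not read for the members, since they make up the index. The count of called members in WT, 5, was 3 with the other-cell score as covariate, 3 in a fit of only the groups compared, and 0 to 6 with single libraries left out. In ΔEGFR it was 0 under every setting read for the members.

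All genes called for CCl4 in WT (2250) became 1457 with no low-count filter, 768 with the other-cell score, 4 with the phase index, 533 in a fit of only the groups compared, 3622 with DESeq2 and 575 to 5111 with single libraries left out. Those in ΔEGFR (746) became 1180 with no scaling factor, 470 with no low-count filter, 35 with the other-cell score, 1643 with depth class, 371 with the phase index, 1286 in a fit of only the groups compared, 2410 with DESeq2, 2271 with limma on TPM and 75 to 972 with single libraries left out. DESeq2 called 2 genes for ΔEGFR against WT in CCl4 and 2 for the interaction, where limma on TPM called 1. Left-out libraries gave 0 in all 3 comparisons of genotype. The slope count (29) became 73 with the other-cell score and 5 to 62 with single libraries left out. The log2 fold change of Ciart in WT was reversed to 0.60 with the phase index; the cause was not tested. The phase index difference kept its sign in WT, at −6.02 to −4.60 with single libraries left out, and ran from −2.11 to 0.30 in ΔEGFR.

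Without a scaling factor the calls split into 2326 higher and 515 lower in WT, against 955 and 1295, and into 997 and 183 in ΔEGFR, against 319 and 427. The median of all genes was then 0.40 in WT and 0.44 in ΔEGFR, in place of −0.03 and −0.02 on the log2 scale. Limma on TPM gave 2874 and 348, and 2129 and 142. No paired analysis was possible because the labels pair no libraries across groups. Depth limits Npas2, at 1 expected count in 1 library.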
